A study of Homo sapiens with 16 samples.

Results

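Ribosome biogenesis genes encode the nucleolar machinery that makes and assembles ribosomes, and 55 of them were taken by name: subunits and factors of RNA polymerase I, core proteins of small nucleolar ribonucleoproteins (snoRNPs), and the factors that process rRNA and assemble the small and large subunits. Of the 55 members, 44 were measured by a probe set annotated to that gene alone, out of 8102 genes tested in all. The other members were NOP56, DKC1, BOP1, PPAN and DDX47, whose 5 entries had only probe sets shared with other gene symbols, and NOP58, POLR1A, GNL3, EBNA1BP2, DDX18 and NOB1, whose 6 entries had no probe set here. The members were described over 4 groups of HepG2 cells, a human hepatoma line that is widely used as a model of hepatocytes. Cells had been given a recombinant adenovirus carrying GPI-PLD (glycosylphosphatidylinositol-specific phospholipase D, a secreted enzyme that cleaves GPI anchors) or an adenovirus carrying LacZ (beta-galactosidase, the control). With either virus they were cultured for 12 h or for 6 h. Each group had 4 arrays. All groups therefore carried an adenovirus, no cells without virus were among them, and the time comparisons set 12 h of culture against 6 h with the same virus. The labels do not say when the hours began, so time since the virus and time in culture cannot be told apart. Below, "GPI-PLD cells" and "LacZ cells" name cells by the virus in their label.

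Ribosome synthesis starts in the nucleolus, where RNA polymerase I transcribes the shared precursor of the 18S and 28S rRNAs with the help of upstream binding factor, the promoter selectivity factor SL1 and the initiation factor RRN3. Box C/D and box H/ACA snoRNPs then guide methylation and pseudouridylation of the precursor, while large processing complexes cleave it and build the small and large subunits. Liver cells carry prominent nucleoli, and many genes of the pathway are known targets of the transcription factor MYC, which binds the E-box CACGTG.

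Signals were MAS5 intensities from 1 array per sample, with nearly the same 2% trimmed mean on all 16 arrays (1000.3 to 1000.4) and array medians of 304.5 to 377.6. Mean correlation of an array with the others of its group was 0.942 to 0.945 in GPI-PLD cells at 12 h and 0.954 to 0.966 in the other groups. All 14 hepatocyte markers on the array (of 16 listed) were above the signal filter, as were 5 of 10 fibroblast, 3 of 8 leukocyte and 2 of 8 endothelial markers. The 8 endothelial markers summed to 1079 to 1496 in GPI-PLD cells at 12 h, against 694 to 1015 at 6 h, and to 1230.1 to 1271 in LacZ cells at 12 h, against 691 to 1200.4 at 6 h. In both viruses every array at 12 h lay above those at 6 h. The 10 fibroblast markers summed to 2363.5 to 3156.8 in GPI-PLD cells at 12 h, against 1512 to 2509.8 at 6 h, with overlap, and to 2103 to 2281 in LacZ cells at 12 h, against 2366 to 2810.3 at 6 h, with every LacZ array at 12 h below those at 6 h and below the GPI-PLD arrays at 12 h. The 8 leukocyte markers summed to 9774.5 to 13124 in GPI-PLD cells at 12 h, against 9092.3 to 11769 at 6 h. In LacZ cells they summed to 10717 to 14309 at 12 h, against 6872.5 to 12701 at 6 h, with overlap in each virus. The 14 hepatocyte markers summed to 593070 to 667600 in GPI-PLD cells at 12 h, against 574910 to 639570 at 6 h. In LacZ cells they summed to 578930 to 625780 at 12 h, against 553840 to 612960 at 6 h, with overlap in each virus. With time, 0 of the 5 fibroblast, 3 leukocyte and 2 endothelial markers tested passed in either virus (limma), where 9.68% and 6.89% of all genes did. Of the 14 hepatocyte markers, 1 fell in GPI-PLD cells (7.14%) and 0 passed in LacZ cells. The part of these marker sets in the time and virus differences below was not tested. GPLD1, which encodes GPI-PLD, did not pass between the viruses on any of its 5 probe sets at either time (lowest limma adjusted p 0.913, from a separate fit over 22215 probe sets). The 95% intervals of GPI-PLD over LacZ reached 2.44-fold at most on signal + 63. At 6 h 1 probe set was higher in GPI-PLD cells (log2 0.596, 95% interval 0.144 to 1.047, unadjusted limma p 0.0122). Its signals there were dim and overlapped, at 41.3 to 112.8 against 15.7 to 46, under the filter of 188.1. The other intervals at 6 h and all those at 12 h held 0, which does not show equal levels. Where the GPLD1 probe sets lie relative to the viral insert is not given in the sources used here, so the virus labels have no check from the transcript, and every GPI-PLD minus LacZ direction rests on the labels. Nothing in the labels says that the 4 arrays of a group were separate cultures, and the p-values reflect array-to-array spread only.

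The question of the time comparison was how the members stood at 12 h relative to 6 h of culture with the same virus. In GPI-PLD cells DDX21, TAF1D, NOP2, RCL1 and PNO1 rose and NHP2 and FBL fell, by 1.24-fold to 1.80-fold on signal + 63. In LacZ cells WDR43 rose and NHP2 and NOP10 fell, by 1.26-fold to 1.60-fold. Thus 7 of 44 members passed in GPI-PLD cells (15.9%), against 9.68% of all genes, and 3 of 44 passed in LacZ cells (6.82%), against 6.89% of all genes (limma, Benjamini-Hochberg adjusted p under 0.05 over 8102 genes). By direction, 5 members rose in GPI-PLD cells (4.6% of all genes did) and 2 fell (5.07%), while 1 rose in LacZ cells (3.64%) and 2 fell (3.25%). The LacZ share of members was near that of all genes, and the difference between the shares in GPI-PLD cells was not tested. The count of 7 was 3 without GPI-PLD 6 h replicate 2 or without GPI-PLD 12 h replicate 1, and 4 without GPI-PLD 6 h replicate 3, GPI-PLD 6 h replicate 4 or GPI-PLD 12 h replicate 4. Without a test, 5 members had 12 h arrays all above the 6 h arrays in GPI-PLD cells and 3 all below (8.0% and 7.86% of all genes), and in LacZ cells 4 were all above and 4 all below (6.73% and 6.22%). NHP2 was the 1 member that passed in both viruses (2.27% of members), where 339 of all genes did (4.18%).

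**Figure D1:**
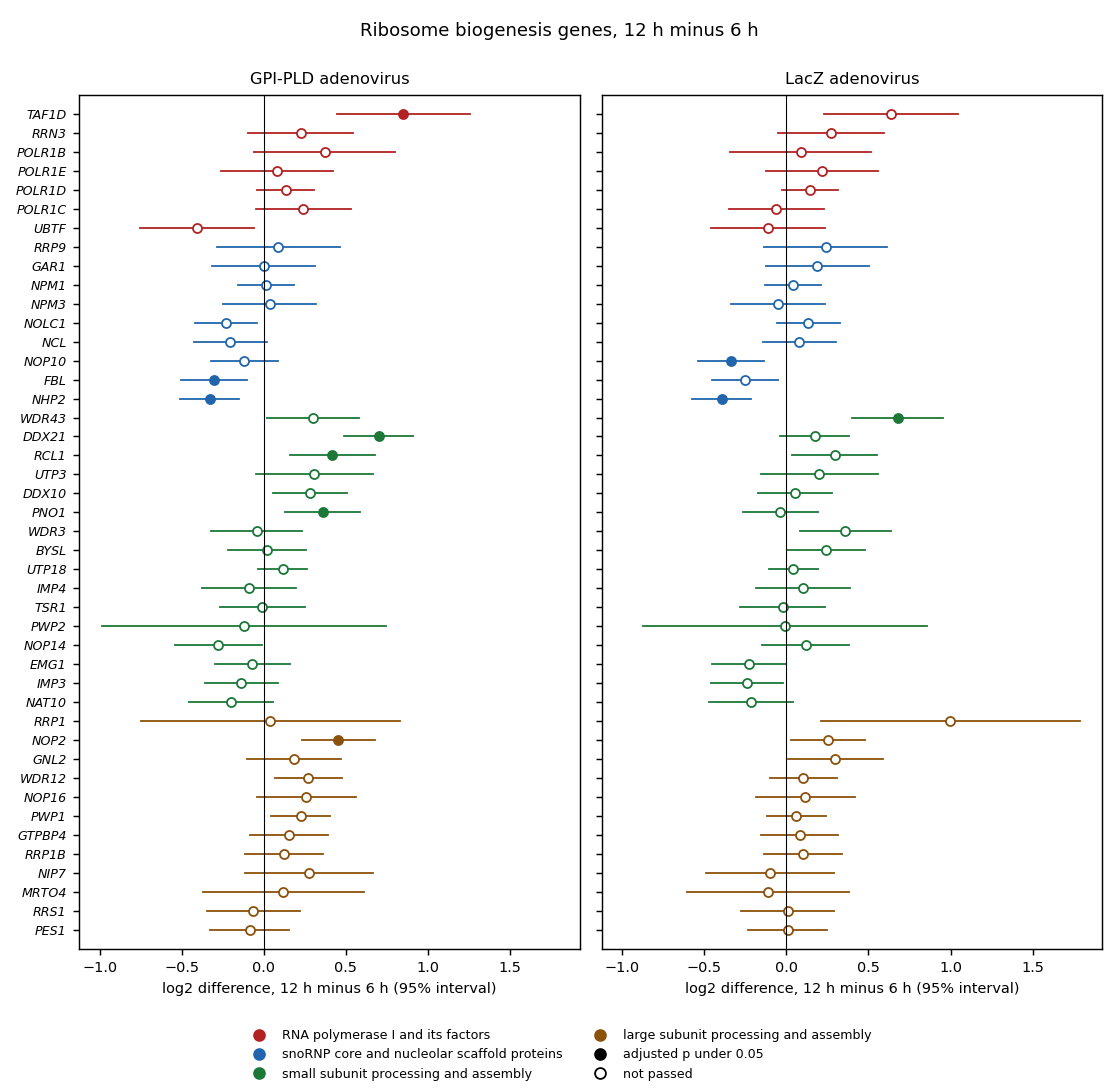
Log2 difference of signal + 63 between 12 h and 6 h for the 44 measured ribosome biogenesis genes, in GPI-PLD cells (left) and LacZ cells (right), with 95% intervals from limma. Colours give the role, filled points passed the adjusted p threshold of 0.05: 7 in GPI-PLD cells and 3 in LacZ cells.

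Of the 9 genes that passed in either virus, 7 carry the E-box CACGTG in a RefSeq promoter window, which holds 250 bases before and 50 bases from the start of the gene. So do 19 of the 40 measured members with a window, passed or not, where any window of a gene counts. Counted by window, 9.43% of those of all genes tested hold it. The difference between these shares was not tested. For 5 of the 7 genes the window is shown, with that of NHP2, which passed in both viruses. MYC transcript was measured too (below). The windows are from GRCh38.p14 in the direction of the gene. They are chr10:68956397-68956696 on the plus strand for DDX21 (the second of its windows), chr2:28894417-28894716 on the plus strand for WDR43, chr12:6568242-6568541 on the minus strand for NOP2, chr19:39846330-39846629 on the minus strand for FBL, chr15:34343087-34343386 on the minus strand for NOP10 and chr5:178153836-178154135 on the minus strand for NHP2. Capitals mark CACGTG, which reads the same on both strands.
DDX21: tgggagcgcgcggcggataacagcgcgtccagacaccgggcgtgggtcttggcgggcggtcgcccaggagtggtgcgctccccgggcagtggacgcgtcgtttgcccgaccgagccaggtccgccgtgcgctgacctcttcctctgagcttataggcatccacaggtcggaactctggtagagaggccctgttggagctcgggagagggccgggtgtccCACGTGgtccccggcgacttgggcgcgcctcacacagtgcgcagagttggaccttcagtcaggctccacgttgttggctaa
WDR43: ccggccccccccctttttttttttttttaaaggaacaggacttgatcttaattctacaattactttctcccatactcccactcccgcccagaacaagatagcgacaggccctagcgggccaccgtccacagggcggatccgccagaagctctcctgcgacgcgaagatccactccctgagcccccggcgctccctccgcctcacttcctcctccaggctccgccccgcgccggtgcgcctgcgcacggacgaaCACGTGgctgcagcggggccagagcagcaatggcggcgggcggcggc
NOP2: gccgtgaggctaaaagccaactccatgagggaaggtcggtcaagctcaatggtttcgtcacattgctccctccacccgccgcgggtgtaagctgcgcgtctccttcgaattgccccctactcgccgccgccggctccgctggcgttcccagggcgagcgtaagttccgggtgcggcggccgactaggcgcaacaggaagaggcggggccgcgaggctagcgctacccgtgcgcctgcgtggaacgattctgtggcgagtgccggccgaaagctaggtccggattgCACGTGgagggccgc
FBL: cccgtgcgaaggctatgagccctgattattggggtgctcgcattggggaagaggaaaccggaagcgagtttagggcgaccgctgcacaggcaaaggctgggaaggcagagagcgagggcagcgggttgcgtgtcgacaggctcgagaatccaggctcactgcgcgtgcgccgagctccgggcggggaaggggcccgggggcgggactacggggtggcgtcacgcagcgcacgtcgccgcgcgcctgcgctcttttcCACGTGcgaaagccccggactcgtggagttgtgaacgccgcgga
NOP10: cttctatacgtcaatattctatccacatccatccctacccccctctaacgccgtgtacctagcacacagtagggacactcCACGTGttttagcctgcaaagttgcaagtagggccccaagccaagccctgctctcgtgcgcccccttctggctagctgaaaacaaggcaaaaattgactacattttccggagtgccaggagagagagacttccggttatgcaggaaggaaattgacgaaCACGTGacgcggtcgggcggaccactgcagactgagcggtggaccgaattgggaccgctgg
NHP2: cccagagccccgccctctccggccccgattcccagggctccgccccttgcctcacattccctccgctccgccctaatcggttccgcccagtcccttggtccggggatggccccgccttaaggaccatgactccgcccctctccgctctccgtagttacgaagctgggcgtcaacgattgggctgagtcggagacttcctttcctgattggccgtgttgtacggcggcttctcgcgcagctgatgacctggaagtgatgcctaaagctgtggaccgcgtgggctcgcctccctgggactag
The E-box lies 31 bases before the start in the DDX21 window shown, and 3, 35 and 6 bases after it in WDR43, NOP2 and FBL. The other DDX21 window, from another annotated start, holds no E-box. NOP10 carries a pair of E-boxes, 170 and 11 bases before the start, and the NHP2 window holds none. Of the genes shown for their E-box, some rose (DDX21, WDR43, NOP2) and some fell (FBL, NOP10). The window of TAF1D, which rose, holds no E-box.

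Among RNA polymerase I and its factors, 7 of 8 members were measured, and TAF1D alone passed in GPI-PLD cells, with 0 passing in LacZ cells (1 at an unadjusted p under 0.05, limma), where 9.68% and 6.89% of all genes passed. At that unadjusted threshold there were 1634 of all 8102 genes in LacZ cells. TAF1D is a subunit of SL1, the complex that brings RNA polymerase I to the rRNA promoter. Its signal was 965, 1020.1, 1245 and 1090.4 at 12 h in GPI-PLD cells, against 665, 659, 498 and 478 at 6 h. In LacZ cells it was 1077, 1131, 956 and 510.3 at 12 h, against 499, 468, 636 and 588 at 6 h. The groups did not overlap in GPI-PLD cells, and in LacZ cells 1 array at 12 h, with 510.3, lay among those at 6 h. TAF1D rose 1.8-fold in GPI-PLD cells (log2 0.85 ± 0.20, where ± gives the SE of every log2 difference, adjusted p 0.00621), and differed by 0.64 ± 0.20 in LacZ cells (adjusted p 0.051, 1.56-fold), just above the threshold. Upstream binding factor, UBTF, had signals of 516, 659, 752 and 632 at 12 h in GPI-PLD cells, against 1031, 836, 808 and 793 at 6 h. The arrays did not overlap, but the difference of -0.41 ± 0.17 did not pass (adjusted p 0.137). In LacZ cells UBTF averaged 734 ± 79.4 at 12 h and 813 ± 213 at 6 h (SD, n = 4 each), a log2 difference of -0.11 ± 0.17 that turned to 0.04 without LacZ 6 h replicate 3. POLR1B, the second largest polymerase subunit, averaged 696 ± 83.1 at 12 h and 531 ± 122 at 6 h in GPI-PLD cells, and 618 ± 212 at 12 h and 556 ± 46.9 at 6 h in LacZ cells (SD, n = 4 each). Its differences of 0.37 ± 0.21 and 0.09 ± 0.21 did not pass, and its probe set is of the kind that can also bind similar transcripts. RRN3, which primes the polymerase for initiation, and the subunits POLR1C, POLR1D and POLR1E lay between -0.06 and 0.27 in both viruses and did not pass. A further probe set of POLR1C gave 0.44 ± 0.11 in GPI-PLD cells and 0.27 ± 0.11 in LacZ cells, where the brighter set that was used gave 0.24 ± 0.14 and -0.06 ± 0.14.

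The snoRNP core and nucleolar scaffold proteins held all the members that fell. Of 9 measured, 2 fell in GPI-PLD cells (NHP2, FBL), 2 fell in LacZ cells (NHP2, NOP10) and the rest did not pass (limma), where 5.07% of all genes fell in GPI-PLD cells and 3.25% in LacZ cells. NHP2 and NOP10 are core proteins of the H/ACA snoRNPs, which direct pseudouridylation, and both also belong to the telomerase particle. NHP2 signal was 3876, 4701, 4246 and 4150.4 at 12 h in GPI-PLD cells, against 4965, 5635, 5335 and 5454 at 6 h. In LacZ cells it was 3857, 3782, 4478 and 4471 at 12 h, against 5249, 5582, 5844 and 5164 at 6 h. Every 12 h array lay below every 6 h array of the same virus. NHP2 fell by 0.33 ± 0.09 in GPI-PLD cells (1.26-fold, adjusted p 0.0154) and by 0.39 ± 0.09 in LacZ cells (1.31-fold, adjusted p 0.00508) on the log2 scale. The call in GPI-PLD cells was lost without GPI-PLD 6 h replicate 2 (0.0559) or GPI-PLD 12 h replicate 1 (0.0595), numbers in parentheses being limma adjusted p-values (range over the alternatives 0.00831 to 0.0595).

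NOP10 had signals of 12421, 16082, 12315 and 11768 at 12 h in GPI-PLD cells, against 13786, 14495, 14525 and 13876 at 6 h. In LacZ cells it had 10767, 12568, 12564 and 11893 at 12 h, against 12839, 15629, 17662 and 14602 at 6 h. LacZ arrays did not overlap, while GPI-PLD 12 h replicate 2, the second value, lay above all the GPI-PLD arrays at 6 h. The difference of -0.12 ± 0.10 in GPI-PLD cells did not pass (adjusted p 0.507), and in LacZ cells NOP10 fell by 0.34 ± 0.10 on the log2 scale (adjusted p 0.0362). The LacZ call was lost without LacZ 6 h replicate 2 (0.0867), LacZ 6 h replicate 3 (0.133), LacZ 6 h replicate 4 (0.0518), LacZ 12 h replicate 1 (0.125), LacZ 12 h replicate 2 (0.0552) or LacZ 12 h replicate 4 (0.074), with adjusted p from 0.0113 to 0.133 over the alternatives. The third H/ACA protein measured, GAR1, differed by -0.0006 in GPI-PLD cells and 0.19 in LacZ cells and did not pass.

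FBL (fibrillarin) is the methyltransferase of the C/D snoRNPs. Its signal was 5848, 7584, 6876 and 7304 at 12 h in GPI-PLD cells, against 7482, 8325, 8867 and 9466 at 6 h. LacZ cells had 7171, 6652, 7789 and 7261 at 12 h, against 7801, 8227, 10152 and 8435 at 6 h. GPI-PLD arrays overlapped by a single pair of values, and LacZ arrays did not overlap. FBL fell by 0.31 ± 0.10 in GPI-PLD cells (adjusted p 0.0491), the weakest of the 7 calls, and differed by -0.25 ± 0.10 in LacZ cells (adjusted p 0.129). The GPI-PLD call was lost without any 1 of 12 arrays, which were LacZ 6 h replicate 2 (0.0557), LacZ 6 h replicate 4 (0.0504), GPI-PLD 6 h replicate 2 (0.0858), GPI-PLD 6 h replicate 3 (0.126), GPI-PLD 6 h replicate 4 (0.16), LacZ 12 h replicate 1 (0.0585), LacZ 12 h replicate 2 (0.0537), LacZ 12 h replicate 3 (0.0547), LacZ 12 h replicate 4 (0.0582), GPI-PLD 12 h replicate 1 (0.183), GPI-PLD 12 h replicate 3 (0.0807) and GPI-PLD 12 h replicate 4 (0.0557). Adjusted p ran from 0.0273 to 0.183 over the alternatives, and the difference was below 0 in each.

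Nucleolin and nucleophosmin, the abundant nucleolar proteins encoded by NCL and NPM1, did not pass with time in either virus. NCL signal was 16019.7, 17796, 16033 and 15722 at 12 h in GPI-PLD cells, against 13913, 19762, 22032 and 20995 at 6 h. LacZ cells had 20049, 19332, 19153 and 20643 at 12 h, against 21826, 16961, 17957 and 18561 at 6 h. The differences were -0.21 ± 0.11 in GPI-PLD cells and 0.08 ± 0.11 in LacZ cells (limma adjusted p 0.262 and 0.765), and without GPI-PLD 6 h replicate 1 NCL passed as lower in GPI-PLD cells (log2 -0.35, adjusted p 0.0106, range over the alternatives 0.0106 to 0.564). NPM1 averaged 39034 ± 4800 at 12 h and 38562 ± 3530 at 6 h in GPI-PLD cells (SD, n = 4 each). In LacZ cells it averaged 39666 ± 444 at 12 h and 38666 ± 2975 at 6 h. The 95% intervals of its log2 difference were -0.16 to 0.19 in GPI-PLD cells and -0.13 to 0.21 in LacZ cells, among the narrower of the members, and its 3 probe sets gave values from -0.09 to 0.04. NOLC1, a nucleolar chaperone of snoRNPs, differed by -0.23 ± 0.09 in GPI-PLD cells and 0.13 ± 0.09 in LacZ cells without passing. Its further probe sets disagreed in GPI-PLD cells, at 0.08 ± 0.09 and 0.43 ± 0.16, so its direction there depends on the probe set. The histone chaperone NPM3 and the U3 snoRNP protein RRP9 lay between -0.05 and 0.24 and did not pass.

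Small subunit processing and assembly had 16 of 18 members measured, of which 3 rose in GPI-PLD cells (DDX21, RCL1, PNO1), 1 rose in LacZ cells (WDR43) and the rest did not pass (limma), where 4.6% of all genes rose in GPI-PLD cells and 3.64% in LacZ cells. DDX21 is a DEAD-box RNA helicase that binds rRNA and snoRNAs. Its signal was 11541, 9609, 10381 and 10180.4 at 12 h in GPI-PLD cells, against 6701, 5927, 6295 and 6655 at 6 h. LacZ cells had 9235, 9308, 7758 and 7878 at 12 h, against 8853, 6308, 6868 and 8474 at 6 h. In GPI-PLD cells each 12 h array lay above all the 6 h arrays, while in LacZ cells the arrays overlapped. DDX21 rose 1.62-fold in GPI-PLD cells (log2 0.70 ± 0.10, adjusted p 4.58e-05), the smallest p among the members. In LacZ cells the difference was 0.17 ± 0.10 (adjusted p 0.365), and the test of the difference between the viruses is given below.

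WDR43 belongs to the small subunit processome, in the complex that links rRNA transcription to processing. Its signal was 1585, 1587, 1880.3 and 1338 at 12 h in GPI-PLD cells, against 1345, 1236, 1315 and 1215 at 6 h. LacZ cells had 1469, 2054, 1632 and 1688 at 12 h, against 868, 963, 1057 and 1312 at 6 h. In GPI-PLD cells 1 array at 12 h, with 1338, lay within the 6 h range, and LacZ arrays were fully separate. WDR43 differed by 0.30 ± 0.13 in GPI-PLD cells (adjusted p 0.179) and rose 1.6-fold in LacZ cells (log2 0.68 ± 0.13, adjusted p 0.00226).

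RCL1, a factor of 18S rRNA maturation, had signals of 1417, 1156, 1213 and 1311 at 12 h in GPI-PLD cells, against 1064, 884, 883 and 923 at 6 h. LacZ cells had 1177, 1151, 1308 and 1584 at 12 h, against 1129, 1054, 948 and 1055 at 6 h. Its 12 h arrays lay above its 6 h arrays in both viruses. The difference was 0.42 ± 0.12 in GPI-PLD cells, where it passed (adjusted p 0.0357), and 0.29 ± 0.12 in LacZ cells, where it did not (adjusted p 0.181). The call was lost without GPI-PLD 6 h replicate 2 (0.0942), GPI-PLD 6 h replicate 3 (0.0971), GPI-PLD 6 h replicate 4 (0.0777), GPI-PLD 12 h replicate 1 (0.111) or GPI-PLD 12 h replicate 4 (0.076) (adjusted p 0.0231 to 0.111 over the alternatives). PNO1, a late-acting assembly factor of the 40S subunit, had 4444, 5873, 3819 and 4904 at 12 h in GPI-PLD cells, against 3737, 3482, 3915 and 3488 at 6 h. It averaged 3847 ± 401 at 12 h and 3942 ± 299.7 at 6 h in LacZ cells (SD, n = 4 each). GPI-PLD arrays overlapped, and the high value of 5873 came from 12 h replicate 2. PNO1 rose by 0.36 ± 0.11 in GPI-PLD cells (adjusted p 0.0404) and differed by -0.04 ± 0.11 in LacZ cells, and its further probe set gave 0.06 ± 0.12 in GPI-PLD cells and 0.24 ± 0.12 in LacZ cells. Without GPI-PLD 6 h replicate 1 (0.0679), GPI-PLD 6 h replicate 2 (0.105), GPI-PLD 6 h replicate 3 (0.0547), GPI-PLD 6 h replicate 4 (0.102), GPI-PLD 12 h replicate 1 (0.0533), GPI-PLD 12 h replicate 2 (0.141) or GPI-PLD 12 h replicate 4 (0.0915) the call was lost, and adjusted p ran from 0.00858 to 0.415 over the alternatives.

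The other small subunit members did not pass in either virus. NOP14, a processome protein, had 1728, 1835, 2039 and 2082 at 12 h in GPI-PLD cells, against 2469, 2105, 2488 and 2299 at 6 h. These arrays did not overlap, with a difference of -0.28 ± 0.13 (adjusted p 0.192), whereas LacZ cells gave 0.12 ± 0.13. WDR3, another processome protein, had 2580.4, 2839, 2056 and 2182 at 12 h in LacZ cells, against 1923, 2004, 1680.4 and 1823 at 6 h. Those arrays were separate too, where the difference was 0.36 ± 0.13 (adjusted p 0.123); in GPI-PLD cells it was -0.04 ± 0.13. UTP18 was separate in GPI-PLD cells at a small difference of 0.12 ± 0.07, and EMG1, a methyltransferase of 18S rRNA, was separate in LacZ cells at -0.23 ± 0.11. The U3 snoRNP proteins IMP3 and IMP4, the acetyltransferase NAT10, and BYSL, DDX10, PWP2, TSR1 and UTP3 lay between -0.24 and 0.31. PWP2 had the widest intervals of the group, -0.99 to 0.75 in GPI-PLD cells and -0.87 to 0.86 in LacZ cells.

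For the large subunit, 12 of 17 members were measured, and NOP2 alone rose, in GPI-PLD cells, with 0 passing in LacZ cells (3 at an unadjusted p under 0.05, limma), where 9.68% and 6.89% of all genes passed. At that unadjusted threshold there were 1634 of all 8102 genes in LacZ cells. NOP2 methylates 28S rRNA and is a long-known proliferation marker of the nucleolus. Its signal was 2825, 2849, 2527 and 2755 at 12 h in GPI-PLD cells, against 2359, 2015, 2079 and 1557 at 6 h. LacZ cells had 2426, 2427, 2505 and 2723 at 12 h, against 2209, 2141, 1931 and 2129.9 at 6 h. The 12 h arrays lay above the 6 h arrays in both viruses. NOP2 rose 1.37-fold in GPI-PLD cells (log2 0.45 ± 0.11, adjusted p 0.00789) and differed by 0.25 ± 0.11 in LacZ cells (adjusted p 0.181). Of the 12 measured members, 10 lay above 0 in GPI-PLD cells and 10 in LacZ cells, with medians of 0.17 and 0.09. Of all 8102 genes, 4181 lay above 0 in GPI-PLD cells and 4102 in LacZ cells, and the difference was not tested. PES1 and WDR12, partners in the PeBoW complex that matures the rRNA of the large subunit, differed by -0.09 ± 0.12 and 0.27 ± 0.10 in GPI-PLD cells, and by 0.01 ± 0.12 and 0.10 ± 0.10 in LacZ cells. RRP1 had the largest difference of any member, 0.998 ± 0.38 in LacZ cells, from 689, 242, 444 and 397 at 12 h, against 250.4, 78.8, 164 and 271 at 6 h. These arrays overlapped, and the difference did not pass (adjusted p 0.129). The GTPases GNL2 and GTPBP4, and MRTO4, NIP7, NOP16, PWP1, RRP1B and RRS1, lay between -0.11 and 0.30. A further probe set of NOP16 gave 0.56 ± 0.15 in GPI-PLD cells, where the brightest gave 0.26 ± 0.15.

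**Figure D2:**
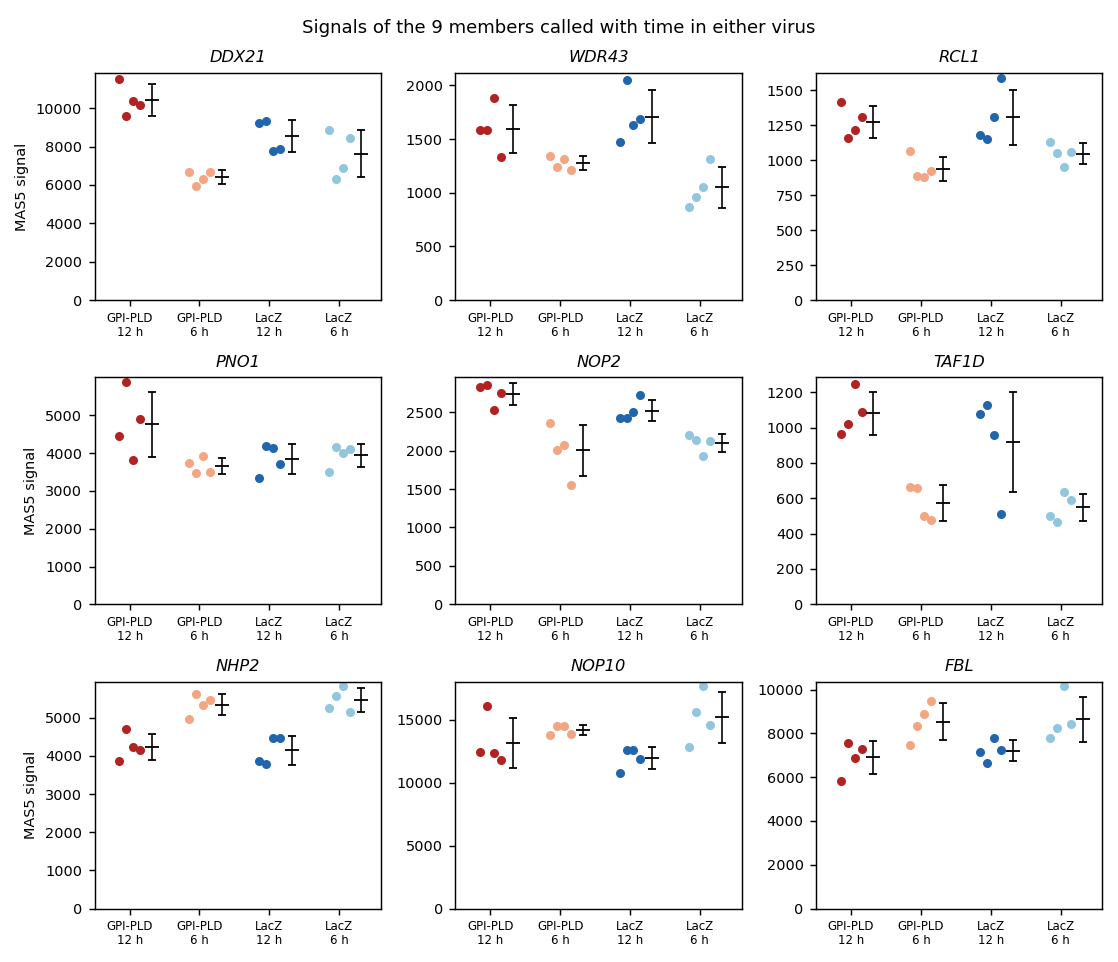
MAS5 signal (linear axes from 0) of the 9 genes that passed with time in either virus, for GPI-PLD cells at 12 h and 6 h and LacZ cells at 12 h and 6 h. Points are single arrays, and bars are mean ± SD over 4 arrays. Arrays at 12 h and 6 h are separate in both viruses for NHP2 (lower at 12 h) and for RCL1 and NOP2 (higher at 12 h). They are separate in GPI-PLD cells alone for DDX21 and TAF1D, and in LacZ cells alone for WDR43, NOP10 and FBL. For TAF1D, 1 LacZ array at 12 h stands at 510.3.

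As a whole the members shifted little with time. Their median log2 difference was 0.0844 in GPI-PLD cells and 0.084 in LacZ cells, against 0.0133 and 0.0051 over all genes. Of the 44 members, 27 lay above 0 in GPI-PLD cells and 30 in LacZ cells, where 4181 and 4102 of all 8102 genes did. The median member level of an array, as a log2 deviation from each gene's mean over all arrays, was 0.0216 to 0.0418 in GPI-PLD cells at 12 h, against -0.0938 to 0.0167 at 6 h, and 0.0079 to 0.0875 in LacZ cells at 12 h, against -0.0824 to 0.0194 at 6 h. GPI-PLD arrays at 12 h thus lay above those at 6 h and LacZ arrays overlapped, and a pooled SD of 0.04 between arrays of a group was of the order of the shift. Both time effects rest on different arrays, and 31 of 44 members had the same sign in both viruses (70.5%), where 63.9% of all genes did. In a comparison added after the data had been seen, the time effects of both viruses were averaged over 8 arrays at 12 h and 8 at 6 h. Then 8 of 44 members passed (18.2%), against 16.1% of all genes: TAF1D, WDR43, DDX21, RCL1 and NOP2 rose by 0.35 to 0.74, and NHP2, FBL and NOP10 fell by 0.23 to 0.36. The NOP10 call was lost there with GPI-PLD 12 h replicate 4 left out (limma adjusted p 0.0561), with LacZ 12 h replicate 1 left out (0.0587) and with LacZ 6 h replicate 3 left out (0.0571), within 0.00261 to 0.0807 over the alternatives. By direction, 7.79% of all genes rose and 8.33% fell there.

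**Figure D3:**
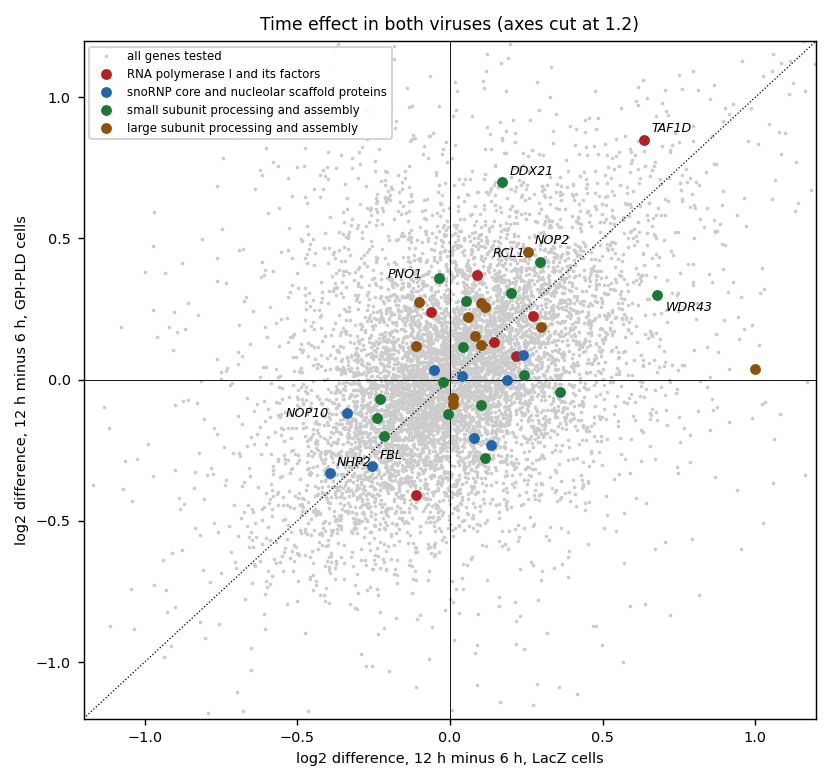
Log2 difference between 12 h and 6 h in GPI-PLD cells (vertical axis) against LacZ cells (horizontal axis) for the 44 members, coloured by role, over all 8102 genes in grey. The dotted line marks equal differences. DDX21 lies above it and WDR43 below it, while NHP2, FBL and NOP10 lie below 0 in both viruses.

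The question of the virus comparison was whether cells given GPI-PLD virus differed from cells given LacZ virus at the same time. No member passed at 6 h or at 12 h (0 of 44 each, against 0.0% of all genes, limma), and with the unadjusted p under 0.05 there were 2 members at 6 h and 5 at 12 h, where 376 and 584 of all genes were. Without the trended and robust variance model the counts of members were also 0. At 6 h the smallest p-values belonged to DDX21, WDR43, NOLC1 and IMP4, with log2 differences of -0.24 ± 0.10, 0.28 ± 0.13, 0.18 ± 0.09 and 0.24 ± 0.14 (adjusted p 0.998 for each). The signals of DDX21 and WDR43 at 6 h, given above, overlapped between the viruses. NOLC1 at 6 h was 5004, 4819, 4886 and 5280.4 in GPI-PLD cells, against 4533, 4318, 4643 and 4123 in LacZ cells, with no overlap. IMP4 at 6 h was 3803, 3671, 2978 and 3959 in GPI-PLD cells, against 2914, 2458, 3766 and 3064 in LacZ cells, with overlap. The NOLC1 difference was 0.0307 with the mean of its probe sets, and that of IMP4 was 0.147 without LacZ 6 h replicate 2. At 12 h they belonged to DDX21, WDR3, PNO1 and NOP14, with 0.29 ± 0.10, -0.38 ± 0.13, 0.29 ± 0.11 and -0.33 ± 0.13 (adjusted p 0.58 to 0.655). That of PNO1 was 0.0802 with the mean of its probe sets and 0.186 without GPI-PLD 12 h replicate 2, and that of WDR3 was -0.245 with GPI-PLD 12 h replicates 2 and 4 both omitted. DDX21 at 12 h was separate between the viruses, 9609 to 11541 in GPI-PLD cells, against 7758 to 9308 in LacZ cells. NCL at 12 h was separate in the other direction, 15722 to 17796 in GPI-PLD cells, against 19153 to 20643 in LacZ cells (log2 -0.27 ± 0.11, adjusted p 0.658). In each direction 1 of 44 members was separate at each time (2.27%), where 1.47% of all genes were higher and 1.56% lower at 6 h, and 2.14% higher and 1.85% lower at 12 h. The median over members was -0.01 at 6 h and 0.03 at 12 h.

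**Figure D4:**
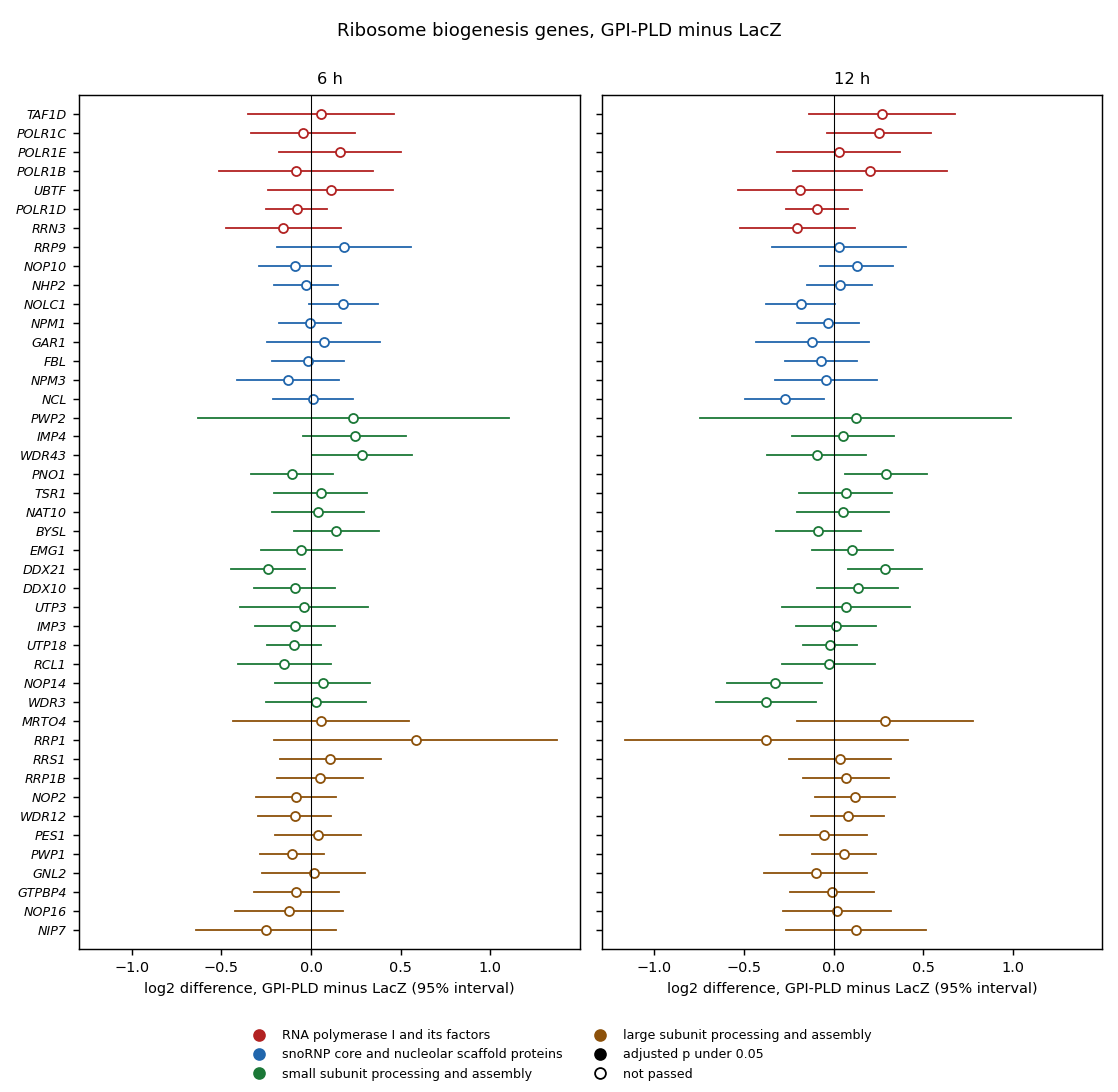
Log2 difference of signal + 63 between GPI-PLD and LacZ cells at 6 h (left) and 12 h (right) for the 44 members, with 95% intervals from limma, coloured by role. All points are open, since none passed, and the median member lies at -0.01 at 6 h and 0.03 at 12 h.

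Whether the time effect itself differed between the viruses was tested as the GPI-PLD minus LacZ difference at 12 h less that at 6 h. No member passed (0 of 44, against 0.0123% of all genes, which is 1 gene), with 5 members and 610 of all genes at an unadjusted p under 0.05. DDX21 had the smallest p, with a difference of 0.53 ± 0.14 (95% interval 0.23 to 0.82, adjusted p 0.376). Then came NOLC1 at -0.36 ± 0.13, PNO1 at 0.40 ± 0.16 and NOP14 at -0.39 ± 0.18 (adjusted p 0.48 to 0.629), and that of NOLC1 turned to 0.07 with the mean of its probe sets, where that of PNO1 was 0.108. So the calls of DDX21 in GPI-PLD cells alone and of WDR43 in LacZ cells alone (difference -0.38 ± 0.19, adjusted p 0.673) were not shown to differ between the viruses.

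Promoter letters were compared with those of other genes. RefSeq windows were found for 48 of 55 members (60 windows), and 36.7% of them held CACGTG, against 9.43% of the 9952 windows of genes tested and 7.26% of all 35116 windows. The ETS-type motif CCGGAAG, searched on both strands like the others, was in 38.3% of member windows, against 15.98% for genes tested. Shares were closer for CCAAT (38.3% against 35.7%) and the GC box GGGCGG (68.3% against 64.1%). Few member windows held CTCGCGAGA (2 of 60, 3.33% against 1.40%) or GCATGCGC, the core of an NRF1 site (5 of 60, 8.33% against 4.61%). TATAAA was in 0 of the 60 member windows, against 6.73%. GC content was 63.4% in member windows and 63.1% in those of genes tested. Among tested members with a window, 19 of 40 held the E-box, 5 of 6 that rose and 2 of 3 that fell. A match is a run of letters, and no binding was measured.

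**Figure D5:**
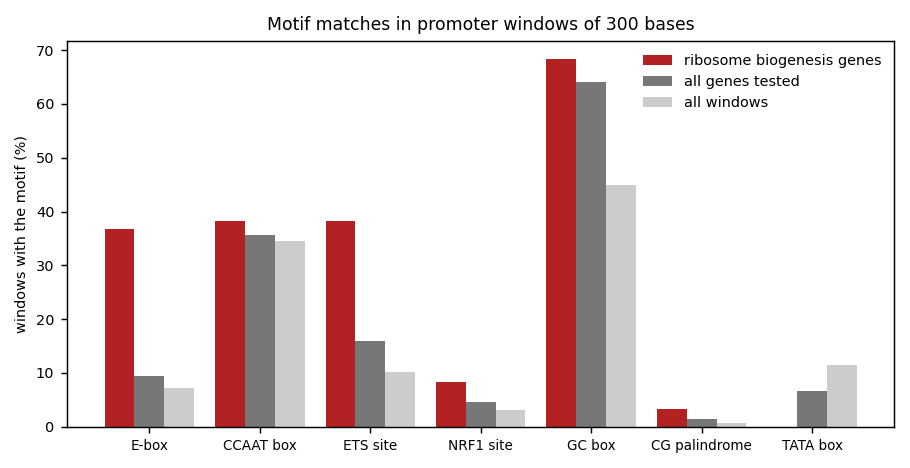
Share of promoter windows (%) that hold each of 7 motifs, for ribosome biogenesis genes, all genes tested and all RefSeq windows. Bars start at 0. The E-box was in 36.7% of member windows and the ETS-type motif in 38.3%, against 9.43% and 15.98% for genes tested.

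Genes around the pathway were taken from lists by function, and their counts stand beside all genes, of which 4.6% rose and 5.07% fell in GPI-PLD cells and 3.64% rose and 3.25% fell in LacZ cells. Differences between these shares were not tested. Of 12 regulators tested (MYC network, p53 and mTOR), 4 rose in GPI-PLD cells, and 4 rose and 1 fell in LacZ cells, so that 33.3% and 41.7% passed, against 9.68% and 6.89% of all genes. MYC signal was 15195, 18175, 12084 and 13039 at 12 h in GPI-PLD cells, against 4940, 6488, 7532 and 5336 at 6 h. LacZ cells had 14962, 12732, 13938 and 14422 at 12 h, against 5431, 5569, 5259 and 5418 at 6 h. Groups were far apart in both viruses, and MYC rose 2.4-fold in GPI-PLD cells (log2 1.26 ± 0.12, adjusted p 9.38e-08) and 2.56-fold in LacZ cells (1.36 ± 0.12, adjusted p 3.92e-08). MNT, a MAX partner that competes with MYC for the E-box, rose too, by 0.64 ± 0.14 and 0.70 ± 0.14. Differences of MAX were 0.27 ± 0.13 and 0.36 ± 0.13, and those of MXI1, another MAX partner, 0.46 ± 0.19 and 0.52 ± 0.19. Neither gene passed in either virus alone. Averaged over both viruses, the comparison added later, MAX rose by 0.32 (limma adjusted p 0.0218) and MXI1 by 0.49 (0.016), where 16.1% of all genes passed. The MAX call held in 22 of 26 alternatives and that of MXI1 in all 26. DDIT4, an inhibitor of mTORC1 signalling, rose by 1.72 ± 0.17 in GPI-PLD cells and 2.03 ± 0.17 in LacZ cells, and the translation repressor EIF4EBP1 by 0.53 ± 0.12 in LacZ cells. In GPI-PLD cells EIF4EBP1 differed by 0.34 and did not pass (limma adjusted p 0.0774). RPS6KB1, of the same list, rose in GPI-PLD cells, with mean signals of 942 at 12 h and 584 at 6 h and overlapping arrays. In LacZ cells its means were 948 and 715, and it did not pass.

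Of 84 other ribosome biogenesis factors tested, 8 rose and 3 fell in GPI-PLD cells, and 3 rose and 1 fell in LacZ cells, with medians of -0.01 and 0.03. The share that passed was 13.1% in GPI-PLD cells, against 9.68% of all genes, and 4.76% in LacZ cells, below the 6.89% of all genes. RSL24D1, a factor of the large subunit, rose in both, by 0.39 ± 0.09 and 0.40 ± 0.09, as did MAK16, by 0.38 ± 0.11 and 0.75 ± 0.11. RPF1 rose by 0.45 ± 0.11 in GPI-PLD cells, against a difference of 0.04 ± 0.11 in LacZ cells, and UTP25 by 0.89 ± 0.18, against 0.41 ± 0.18. HEATR1 rose by 0.92 in GPI-PLD cells (limma adjusted p 0.0104, highest over the alternatives 0.152), against -0.18 in LacZ cells. Its virus by time difference of 1.09 did not pass (0.42), but passed without GPI-PLD 6 h replicate 1 (0.0245). CEBPZ rose by 0.49 in LacZ cells (0.0323, highest over the alternatives 0.135), against 0.06 in GPI-PLD cells. The UTP25 call was lost with the mean of its probe sets (limma adjusted p 0.115), and that of RSL24D1 in GPI-PLD cells with GPI-PLD 12 h replicates 2 and 4 both omitted (0.0766). The MAK16 call in GPI-PLD cells was lost without GPI-PLD 6 h replicate 2, 3 or 4, or without GPI-PLD 12 h replicate 3 or 4 (highest adjusted p over the alternatives 0.156). Cytosolic ribosomal proteins, the products the pathway assembles, had 52 tested, of which 1 passed in GPI-PLD cells (1.92%, against 9.68% of all genes) and rose (RPL27A, 0.43 ± 0.12, with adjusted p from 0.013 to 0.115 over the alternatives and the call lost without any 1 of GPI-PLD 6 h replicates 1, 2 and 3 and GPI-PLD 12 h replicates 1, 3 and 4) and 0 passed in LacZ cells (2 at an unadjusted p under 0.05). Of all 8102 genes, 1634 were under that unadjusted threshold in LacZ cells. Mitochondrial ribosomal proteins, which belong to a separate ribosome, had 9 of 47 fallen in GPI-PLD cells (19.1%, against 5.07% of all genes), 4 fallen in LacZ cells (8.51%, against 3.25%) and the rest not passing. Their median differences were -0.21 and -0.14, against 0.0133 and 0.0051 over all genes. MRPL18 fell in both, by 0.39 ± 0.09 and 0.53 ± 0.09. Of 22 other subunits and factors of RNA polymerases I and III, 1 rose and 1 fell in GPI-PLD cells, and 1 rose and 2 fell in LacZ cells (9.09% and 13.6% passed, against 9.68% and 6.89% of all genes). POLR2L, a small subunit shared by the nuclear polymerases, fell in both, by 0.61 ± 0.13 and 0.45 ± 0.13. Its GPI-PLD call was lost with the mean of its probe sets (limma adjusted p 0.127), and its LacZ call with that mean, with no filter, without the trended and robust variance model and without any 1 of the LacZ arrays except 6 h replicate 4 (adjusted p 0.00253 to 0.52 over the alternatives). Nucleotide synthesis enzymes had 1 of 17 risen (GART, 0.41 ± 0.10) and 3 fallen in GPI-PLD cells, among them PRPS1, which makes the ribose donor PRPP (-0.45 ± 0.10). That is 23.5% passed, against 9.68% of all genes, while 0 passed in LacZ cells (limma, adjusted p under 0.05 over all genes throughout). In LacZ cells 4 of 17 were at an unadjusted p under 0.05 (limma), where 1634 of all 8102 genes were. With the mean of probe sets the calls of GART and PRPS1 (limma adjusted p 0.0667) were lost, and that of GART was also lost with GPI-PLD 12 h replicates 2 and 4 both omitted (highest adjusted p over the alternatives 0.468).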

How the data were processed

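Total RNA (10 µg per array) was measured on Affymetrix human expression arrays, 4 for each combination of adenovirus (GPI-PLD or LacZ) and time (12 or 6 h). The deposited values are MAS5 signal intensities on a linear scale, per the submitters' processing notes; the files name no genome build. The members and lists were chosen with earlier results of these data known. Each of the 22283 probe sets was matched to a gene through the platform annotation. Probe sets with several symbols (1043) were not named, and the brightest 1-symbol probe set stood for a gene. Genes at or above the 40th percentile of mean signal (188.1) were kept, 8102 in all. Log2(signal + 63), 63 being the 20th percentile, was fitted over all 16 arrays with limma 3.58.1 (trended, robust eBayes, R 4.3.3), with Benjamini-Hochberg adjustment over all genes; fold changes are on signal + 63 and understate those of dim genes. Replicate numbers only name arrays. The fit was tested on simulated data. The number of arrays limits the precision. Members described singly are first those that passed with time, the 4 smallest p-values per virus comparison and NCL, NPM1, FBL, UBTF and POLR1B. Promoter windows come from RefSeq (GRCh38.p14). Alternatives covered normalization, pseudocount, filter, probe set choice, variance model, array weights, the arrays compared and single arrays left out.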

Additional observations from a re-analysis of the deposited data

Results flagged for a closer look

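In 68 groups of 4 arrays checked over 17 members described singly, 3 held an array far from the other 3, where chance gives about 1 in 20. NOLC1 was 5182 in GPI-PLD 12 h replicate 3, against 3889 to 4020.1 in the other arrays of that group (a gap of 0.885 of the range). NOP14 was 2873 in LacZ 6 h replicate 4, against 1983 to 2109 in the others (0.834). NCL was 17796 in GPI-PLD 12 h replicate 2, against 15722 to 16033 in the others (0.842).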

How the results depend on the processing

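The directions of the 10 time calls of named members held in all 27 alternatives run for each, and the calls of DDX21 and TAF1D in GPI-PLD cells and of WDR43 and NHP2 in LacZ cells passed in all of them. The count of 7 members that passed with time in GPI-PLD cells was 4 with no filter, 4 with only the arrays compared and 4 with GPI-PLD 12 h replicates 2 and 4 both omitted, and 3 to 8 with 1 array left out; 3 of 44 in LacZ cells ranged from 2 to 4. The median member difference in GPI-PLD cells ran from 0.0691 to 0.127 with 1 array left out, that in LacZ cells was 0.0358 under 75th percentile scaling, and that of the virus by time difference ran from -0.00557 to 0.0615 with 1 array left out. NOP2 lost its call with replicates 2 and 4 omitted (adjusted p 0.0651), NHP2 its GPI-PLD call in 2 alternatives, RCL1 in 8, PNO1 in 14, FBL in 18 and NOP10 in 9 alternatives. Signs turned for NOLC1 in the virus by time difference (0.0706, mean of probe sets), and for values near 0: NPM1 in GPI-PLD cells (-0.00572 with the mean of probe sets, -0.00851 with both replicates omitted, -0.0626 to 0.0758 with 1 array left out), NPM1 in LacZ cells (-0.0112 under 75th percentile scaling, -0.024 with the mean of probe sets, -0.0167 to 0.0662 with 1 array left out), UBTF in LacZ cells (-0.205 to 0.0406) and POLR1B in LacZ cells (-0.063 to 0.251). The cause was not tested. No paired analysis was possible because the labels give no replicate numbers. No member passed between the viruses in any alternative.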
